A study of Danio rerio with 35 samples.

Results

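The 10 genes described here are immediate early genes, most of which encode subunits of the transcription factor AP-1: fosab, fosb, fosl1a and fosl2 of the Fos family, jun, junba and junbb of the Jun family, atf3, egr1 and ier2b. They were taken by name from 3 RNA sequencing tables of the adult zebrafish telencephalon, which list 23158 genes for Mpeg1+ cells, 25248 for Olig2+ cells and 24030 for the whole telencephalon. All 10 were found in every table, and all 10 passed the filter on low values in each. Gene symbols were matched to Ensembl identifiers. The table of names lists fosab under its synonym fos, and it gives 2 identifiers for the name JUNB, ENSDARG00000074378 and ENSDARG00000104773. No source used here tells which of these is junba and which junbb. They are called JUNB-74378 and JUNB-104773.

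Immediate early genes are transcribed within minutes of a stimulus, before any new protein is made, because kinases of the ERK, JNK and p38 cascades act on transcription factors that already sit at their promoters. AP-1 is a dimer of a Fos and a Jun protein, or of relatives such as ATF proteins, and its subunit composition sets how strongly it activates its targets. In the brain these genes are widely used as markers of recent neuronal activity, and in macrophages and microglia they take part in inflammatory and stress responses. They are also known to be induced by the dissociation of tissue for cell sorting.

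The study asked what the loss of both zebrafish granulin genes does to the telencephalon and whether it resembles aging. Mutants were homozygous for frameshift alleles of both genes (grna-/-;grnb-/-), and the study describes its telencephalon wildtype animals as their siblings. Whole telencephalon was sequenced from old mutants (18 months), old wildtype (18 months), young mutants (5 months) and young wildtype (5 months), with 5 libraries in each group. From young animals of 5 months, Mpeg1+ cells were sorted with the reporter Tg(mpeg1:mCherry), which labels microglia (4 libraries labelled mutant, 3 labelled wildtype), and Olig2+ cells with Tg(olig2:DsRed), which labels oligodendroglia (4 mutant and 4 wildtype libraries). The study also found neuronal genes in the Olig2+ cells, and relates them to ventral neuronal progenitors, a few of which express Olig2. Each sorted library pooled 3 telencephali. Values are normalised counts, that is, reads per gene that the authors divided by a size factor of the library, scaled separately in each table, so no level is compared across the 3 tables. They are not corrected for gene length, so no level is compared between genes. In such bulk samples, fewer cells of a type and less RNA per cell cannot be told apart.

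Depth was 6.11 to 31.6 M reads in the Mpeg1+ table, 6.38 to 59.3 M in the Olig2+ table and 13.9 to 29.4 M in the telencephalon table. The 6.11 M were those of wildtype-labelled Mpeg1+ library 1, against 25.7 to 31.6 M in the other Mpeg1+ libraries. Wildtype-labelled Mpeg1+ library 2 correlated over genes with library 1 of its group at r = 0.57 and with library 3 at 0.61 (log2 scale). Between libraries 1 and 3 of that group r was 0.85. The Olig2+ mutant libraries held 6.38 to 21.8 M reads, against 37.1 to 59.3 M in the wildtype ones. Normalised counts summed to 38.5 M in Olig2+ mutant library 2, against 20.2 to 23.2 M in the other Olig2+ libraries. The same share of counts thus gives higher values in that library, and its values described below hold this scaling. In telencephalon the mutated gene grnb read 4.87 to 21.3 in old mutants, against 57.2 to 118 in old wildtype, and 12.7 to 20.3 in young mutants, against 408 to 905 in young wildtype. In Olig2+ cells it read 57.5 to 205 in mutants and 307 to 472 in wildtype. In Mpeg1+ cells grnb went against the labels, with 499 to 635 in the libraries labelled mutant and 51.3 to 268 in those labelled wildtype. Frameshift alleles need not lower a transcript, so these values alone do not decide the genotype. In Olig2+ cells and at both ages of telencephalon, however, grnb was lower in mutants without overlap. Whether the Mpeg1+ labels are swapped was not tested. If they are swapped, every direction given here for Mpeg1+ cells is reversed. The Mpeg1+ libraries are called by their labels throughout. The other mutated gene, grna, overlapped between mutants and wildtype in Mpeg1+, Olig2+ and young telencephalon libraries, and read 229 to 494 in old mutants, against 668 to 2153 in old wildtype. The microglial marker csf1ra read 18761 to 23139 in the Mpeg1+ libraries labelled mutant and 4579 to 14991 in those labelled wildtype. The summed level of 29 microglial markers overlapped, at 1214260 to 1264170 in libraries labelled mutant, against 814932 to 1398400 in those labelled wildtype. Of these 29 markers 2 were called higher and 0 lower. In the Olig2+ libraries olig2 read 181 to 1280 in mutants and 763 to 1873 in wildtype, while sox10, which defines the oligodendrocyte lineage, read 0 to 197 in mutants and 31.9 to 67.5 in wildtype. The summed level of 18 markers of this lineage overlapped, at 8110 to 12562 in mutants and 10224 to 13273 in wildtype. Of these 18 markers 1 was called higher and 1 lower. The neuronal marker elavl3 was also present in all Olig2+ libraries, at 14929 to 26430 in mutants and 26262 to 40963 in wildtype.

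In Mpeg1+ cells 3 of the 10 genes passed the test, all of them upward in the libraries labelled mutant, and 0 were lower. The 3 were fosl2, fosl1a and fosb, all of the Fos family. Called here means an adjusted p of at most 0.05 in limma's moderated test over all genes and at least a 2-fold change. Of all 21155 genes tested, 4.93% were called higher and 3.57% lower. The median log2 fold change of the 10 genes was 1.08, against 0.05 over all genes. With closely alike libraries labelled mutant averaged, as described below, 0 of the 10 genes were called.

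The gene fosl2 encodes Fra-2, a Fos protein without a strong activation domain that in mammals is typically induced later and for longer than c-Fos. It read 22977, 22787, 23220 and 25142 in the 4 libraries labelled mutant, against 4565, 1410 and 3192 in those labelled wildtype. The groups lay far apart, and the lowest library labelled mutant stood above every library labelled wildtype. Its level was 8.58-fold higher (log2 fold change 3.10, SE 0.36, 95% interval 2.28 to 3.93; adjusted p = 0.0029, limma with Benjamini-Hochberg).

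For fosl1a, which encodes the related Fra-1, the values were 9791, 9967, 10513 and 10132 in libraries labelled mutant, against 2215, 197 and 1037 in those labelled wildtype. Again the groups did not overlap, and the spread lay almost wholly in the libraries labelled wildtype. The difference was 13.1-fold (log2 fold change 3.72, SE 0.69, 95% interval 2.12 to 5.31; adjusted p = 0.0168, limma). The gene fosb, whose mammalian relative gives both a full-length protein and a truncated, long-lived one, read 9679, 9810, 10142 and 9385 in libraries labelled mutant, against 4750, 756 and 1348 in those labelled wildtype. Every library labelled mutant was above the highest one labelled wildtype, and the log2 fold change was 2.53 (SE 0.54, 95% interval 1.29 to 3.76; adjusted p = 0.0257, limma).

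The founding member of the family did not pass the test. The c-Fos gene fosab read 21408, 21229, 21704 and 21161 in libraries labelled mutant, against 44718, 12622 and 38983 in those labelled wildtype. The libraries labelled wildtype lay on both sides of those labelled mutant, and the log2 fold change was -0.39 (SE 0.40; adjusted p = 0.573, limma). The ratio of fosb to fosab was 0.444 to 0.467 in libraries labelled mutant, against 0.0346 to 0.106 in those labelled wildtype. An exact permutation test of this ratio on the log2 scale gave p = 0.0571, the smallest that 4 against 3 libraries allow (adjusted p = 0.133 over 14 tests of ratios), and the ratio was chosen after the values were seen. As neither value is per length, it does not say which transcript was the more abundant.

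Among the Jun genes none passed the test in Mpeg1+ cells. The c-Jun gene jun, whose protein is activated by JNK kinases, read 51038, 50063, 49452 and 38726 in libraries labelled mutant, against 37714, 11321 and 29679 in those labelled wildtype. The groups did not overlap, though mutant-labelled library 4 came close to wildtype-labelled library 1, and the log2 fold change was 1.01 (SE 0.38; adjusted p = 0.141, limma). JunB is a weaker activator than c-Jun and can oppose it. JUNB-74378 read 46084 to 59913 in libraries labelled mutant, against 11570 to 37483 in those labelled wildtype, again without overlap (log2 fold change 1.15, SE 0.39, adjusted p = 0.111, limma). JUNB-104773 overlapped between the groups, with 55202 to 76544 in libraries labelled mutant, against 26707 to 67955 in those labelled wildtype (log2 fold change 0.53, adjusted p = 0.350).

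The gene atf3, a stress-induced member of the ATF/CREB family whose homodimer mostly represses, read 16592, 16980, 18685 and 20669 in libraries labelled mutant, against 9127, 1147 and 5173 in those labelled wildtype. The groups did not overlap, yet the test was missed narrowly (log2 fold change 2.26, SE 0.61, 95% interval 0.86 to 3.66, adjusted p = 0.0568, limma). The zinc finger gene egr1, a target of ERK and the serum response factor, read 77124 to 87549 in libraries labelled mutant, against 59785 to 189096 in those labelled wildtype, which enclosed them (log2 fold change -0.57, adjusted p = 0.354). The gene ier2b, a small nuclear early response protein, read 2248 to 2778 in libraries labelled mutant, against 713 to 2432 in those labelled wildtype (log2 fold change 0.78, adjusted p = 0.239). In all, 6 of the 10 genes were higher with no overlap between the groups, beside 15.3% of all genes, and 6 had an unadjusted p under 0.05, as did 26.5% of all genes. With 4 against 3 libraries an exact permutation test cannot go below p = 0.0571, which all 6 of these genes reached.

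**Figure D1:**
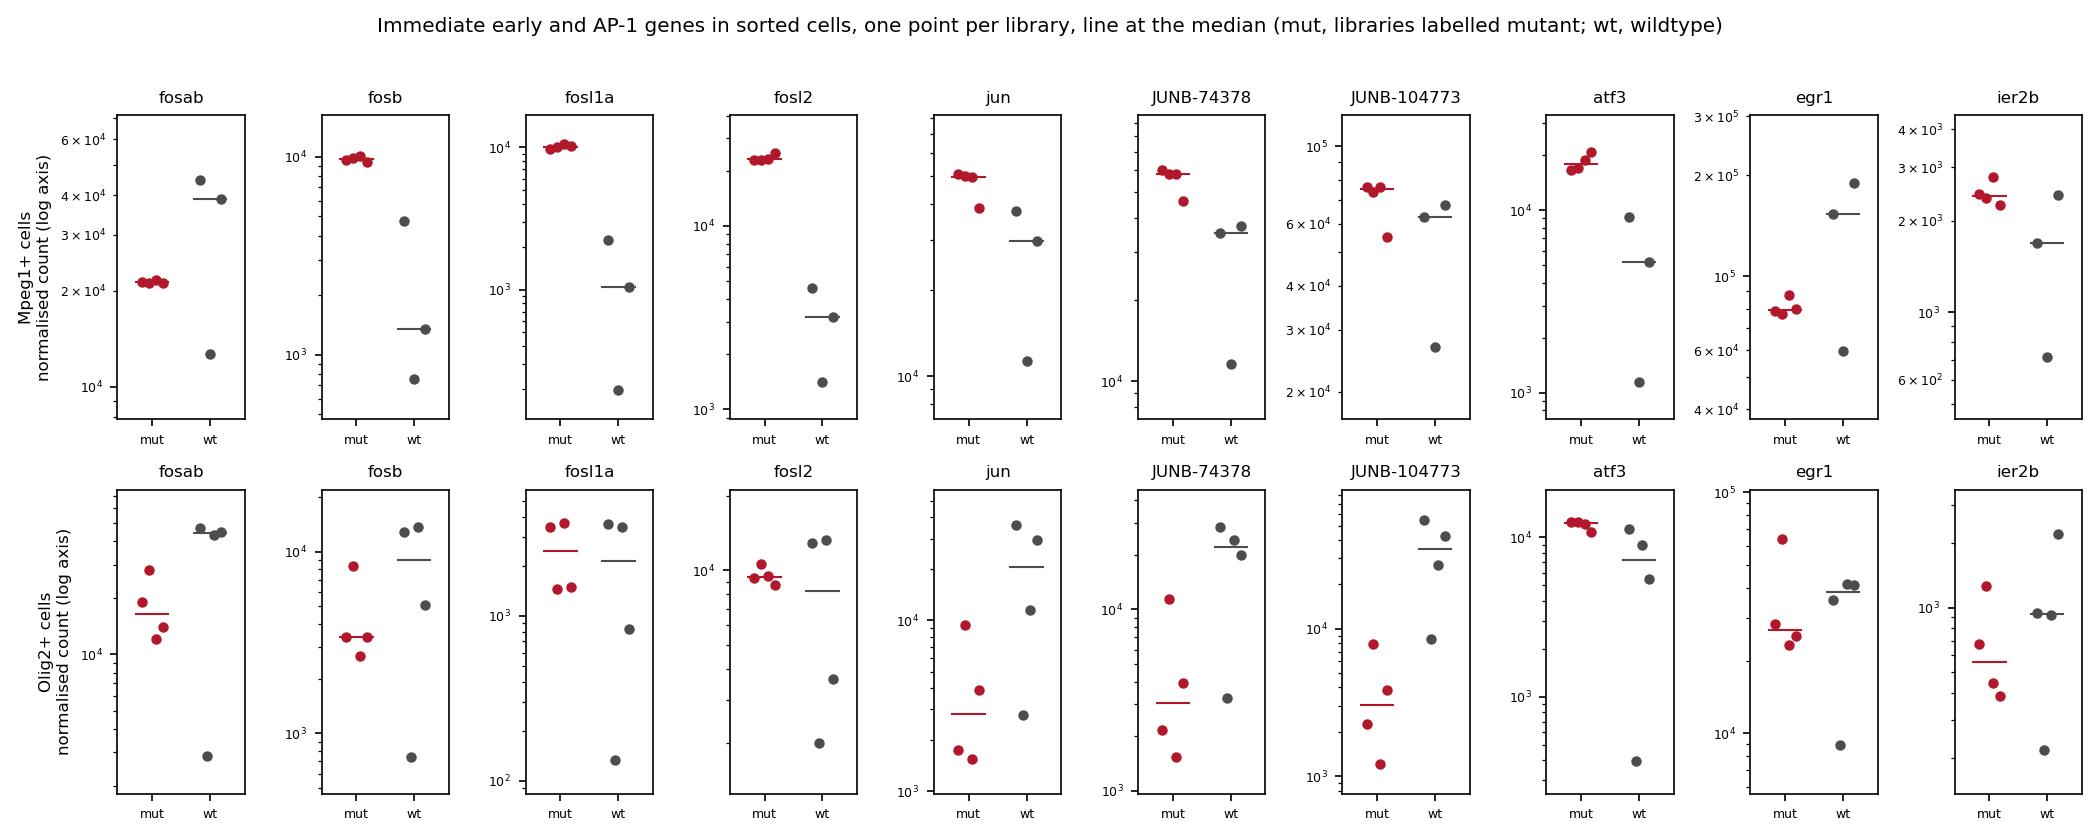
Normalised counts of the 10 genes in each sorted library (log axis; top, Mpeg1+ cells; bottom, Olig2+ cells; each point is 1 library, mutant left of wildtype, with a line at the group median). In Mpeg1+ cells the 4 points labelled mutant lie close together, and for fosl1a, fosl2 and fosb they sit above every point labelled wildtype.

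The calls depended on which libraries entered the test. Counts under such alternatives, here and below, are given without the share of all genes called in the same setting. Mutant-labelled libraries 1 and 2 (mean chi-square of 1.81 per gene), and likewise 3 and 4 (10.3), were much closer to each other than other pairs within a group of the Mpeg1+ table (29.9 or more). They differed by more than sampling noise, but whether each pair came from 1 source was not tested, and the labels do not tell. The SEs and p-values above count the 4 libraries as separate, and they are too small if the libraries of a pair are not independent. In the telencephalon table the closest pair within a group had 10.7. With each such pair averaged into 1 value, 0 of the 10 genes were called (adjusted p = 0.0993 for fosl2, 0.208 for fosl1a and 0.269 for fosb). Without any 1 of the 4 libraries labelled mutant only fosl2 was called. Leaving out wildtype-labelled library 3 lost fosb (adjusted p = 0.0759). Without wildtype-labelled library 1 atf3 was also called higher (log2 fold change 2.90, adjusted p = 0.0250), and without wildtype-labelled library 2, which had the lowest value of all 10 genes, atf3 was called higher (1.40, adjusted p = 0.00609) and egr1 lower (-1.08, adjusted p = 0.00113). Each library was left out in turn, and wildtype-labelled library 2 stands out by the tested values themselves. The p-values without it are therefore not independent evidence.

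Other genes of the pathway also differed in Mpeg1+ cells. Among 17 other AP-1 and bZIP partner genes 8 rose and 0 fell in libraries labelled mutant (median log2 fold change 1.33), and a value in parentheses after a gene of these lists is its log2 fold change. Among them, atf4a, which encodes the effector of the integrated stress response, averaged 11058 ± 802 (SD, n = 4) in libraries labelled mutant, against 2620 ± 202 (SD, n = 3) in those labelled wildtype (log2 fold change 2.08, SE 0.15, adjusted p = 0.00058). The CREM gene crema rose by 2.86 (adjusted p = 0.00169), the heme-regulated repressor gene bach1b by 2.44 and the small Maf gene maff by 1.85 (adjusted p = 0.00352), all on the log2 scale. Of 50 other immediate early genes 11 were higher and 5 lower (median 0.65), led by dusp5, an ERK phosphatase (2.12), trib3 (2.48), the orphan nuclear receptor gene nr4a3 (3.73) and klf2a (2.38). Of 34 upstream kinases and serum response factors 1 was higher (map3k5, 1.08) and 1 lower (rps6ka3b, -1.33).

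Among 24 phosphatases and feedback inhibitors 5 were higher in libraries labelled mutant and 0 lower (median 0.54). They included tnfaip3, which restrains NF-kB (3.03), dusp7 (2.04), and the EGR corepressor genes nab2 (5.63) and nab1a (2.23). Of 25 matrix and cytokine genes known to be induced with AP-1, 8 were higher and 0 lower (median 1.73). Named by the smallest p, these were il11b (6.27), the neutrophil chemokine gene cxcl8a (6.15, adjusted p = 0.00872), tnfa (3.27) and csf3b (6.98). With the alike libraries averaged, 0 genes of the partner, other immediate early, feedback and matrix lists were called higher, which is the lowest count over the alternatives tried.

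Heat shock genes also differed in Mpeg1+ cells. Of 39 heat shock genes 14 were higher in libraries labelled mutant and 0 lower (median 1.51), with hspb1 (4.27), chordc1a (3.86), hspa8 (2.47) and stip1 (2.93) first by p, and 1 of the 39 was left with the alike libraries averaged. The inducible chaperone gene hsp70l read 1539060 to 1750410 in libraries labelled mutant, against 12067 to 158646 in those labelled wildtype. Markers of other cell types moved too. The summed level of 16 leptomeningeal fibroblast markers was 3720 to 4983 in libraries labelled mutant, against 301133 to 528000 in those labelled wildtype, with 8 of the 16 called lower. Their most abundant gene was epd, at 1958 to 2518 in libraries labelled mutant, against 290063 to 519236 in those labelled wildtype. The summed level of 16 ependymoglia and radial glia markers was 83049 to 86050 in libraries labelled mutant, against 132503 to 438351 in those labelled wildtype, with 9 of the 16 called lower (median log2 fold change -2.26). The part of any of these in the result was not tested.

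In Olig2+ cells 2 of the 10 genes were lower in mutants, both named JUNB, and 0 were higher. Of all 22273 genes tested, 12.7% were called lower and 6.99% higher, so for 10 genes these counts were near the shares over all genes. Whether the mutant effect differed between Mpeg1+ and Olig2+ cells was not tested. The median log2 fold change of the 10 genes was -0.36, against -0.01 over all genes, and 3 had an unadjusted p under 0.05, as did 36.5% of all genes.

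JUNB-104773 read 2268, 7890, 1216 and 3850 in the 4 mutant libraries, against 54639, 8475, 26893 and 42824 in the wildtype ones. The groups did not overlap, but mutant library 2 and wildtype library 2 almost met. Mutants were 8.93-fold lower (log2 fold change -3.16, SE 0.60, 95% interval -4.45 to -1.86), with an adjusted p of 0.00465 (limma) and an exact permutation p of 0.0286, the smallest that 4 against 4 libraries allow. It was the 1 gene of the 10 without overlap, beside 13.7% of all genes that were lower without overlap.

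JUNB-74378 read 2148, 11344, 1536 and 3933 in mutant libraries, against 28534, 3228, 24278 and 20067 in wildtype ones. Library 2 of each group crossed over, so the groups overlapped. Even so it was called (log2 fold change -2.06, SE 0.69, 95% interval -3.55 to -0.58, adjusted p = 0.0493, limma, exact permutation p = 0.0857). The third Jun gene, jun, read 1749, 9306, 1539 and 3893 in mutants, against 36153, 2796, 11491 and 29431 in wildtype, with the same crossing of libraries 2. It missed the threshold (log2 fold change -2.11, SE 0.73, adjusted p = 0.0558, limma).

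None of the Fos genes passed the test in Olig2+ cells. For fosab the values were 18915, 28094, 12026 and 13902 in mutants, against 47012, 2887, 43370 and 44847 in wildtype. All mutant libraries lay below wildtype libraries 1, 3 and 4 and above wildtype library 2, and the log2 fold change was -0.39 (adjusted p = 0.735). For fosb it was -0.35, with 2665 to 8291 in mutants, against 741 to 13699 in wildtype. For fosl1a it was 1.07 (1452 to 3632 in mutants, against 133 to 3598 in wildtype), and for fosl2 0.68 (8698 to 10593 in mutants, against 1993 to 13244 in wildtype). In each case the wildtype range enclosed or nearly enclosed that of the mutants.

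The stress gene atf3 read 12419, 12443, 12200 and 10808 in mutants, against 11251, 394, 8980 and 5489 in wildtype. The mutant libraries were nearly level while the wildtype ones were spread widely and overlapped them (log2 fold change 1.63, SE 0.78, adjusted p = 0.151, limma). The values of egr1 were 23212 to 63890 in mutants, against 8944 to 41431 in wildtype (0.24), and those of ier2b 389 to 1264 in mutants, against 218 to 2197 in wildtype (-0.38). The sign of egr1 depended on the setting, as equal library totals gave -0.030. The summed Jun values over the summed Fos values came to 0.154 to 0.589 in mutants, against 0.849 to 2.52 in wildtype, with no overlap. In Mpeg1+ cells the same ratio was 2.13 to 2.94 in libraries labelled mutant, against 2.42 to 3.31 in those labelled wildtype, with overlap. This ratio was also chosen after the values were seen, and its exact permutation p was 0.0286 in Olig2+ cells (adjusted p = 0.0889 over the 14 tests) and 0.571 in Mpeg1+ cells (adjusted p = 0.667).

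**Figure D2:**
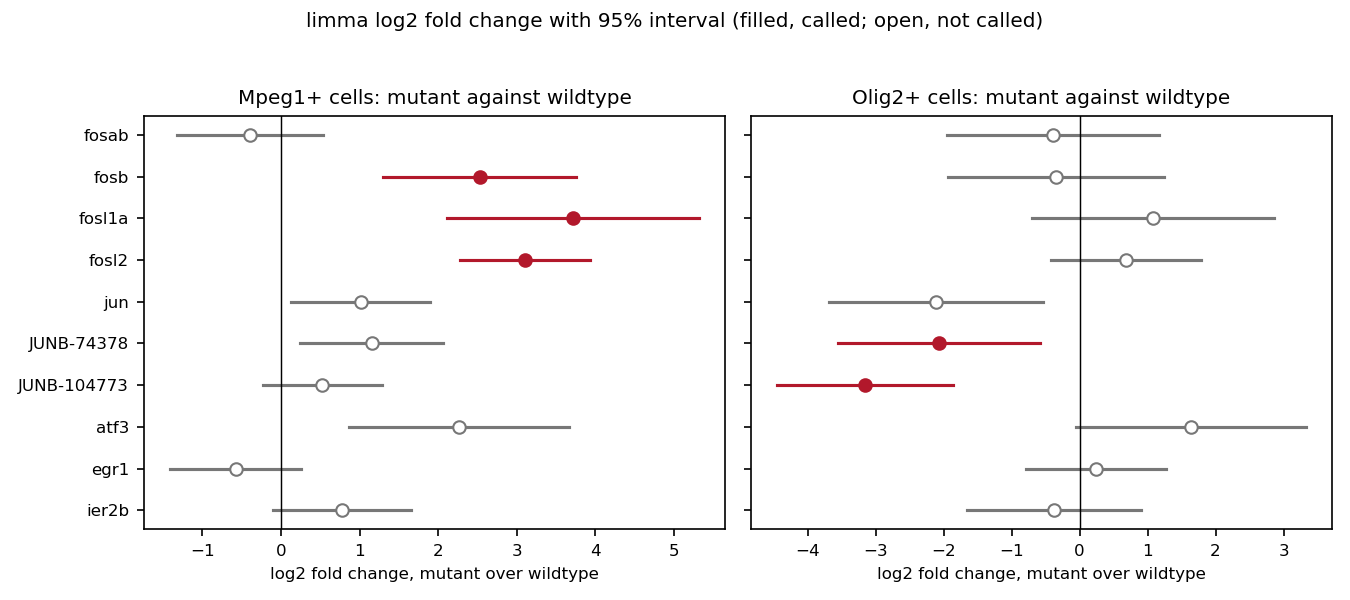
Log2 fold change of each of the 10 genes, libraries labelled mutant over those labelled wildtype, in Mpeg1+ and Olig2+ cells (points, limma estimates; bars, 95% intervals; filled points passed the test). The called genes are fosl2, fosl1a and fosb above 0 in Mpeg1+ cells and both JUNB genes below 0 in Olig2+ cells.

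Wildtype library 2 bore heavily on these values, as it was the lowest of the 4 wildtype libraries for all 10 genes. Without it 4 genes were lower: both JUNB genes, jun (log2 fold change -2.87, adjusted p = 0.0124, limma) and fosab (-1.38, adjusted p = 0.0222). Each library was left out in turn, and wildtype library 2 is singled out for its low values in these same genes. These p-values are therefore not independent evidence. Without mutant library 2, 3 were lower, jun among them (adjusted p = 0.0289), and without any other single library only JUNB-104773 was. With both libraries numbered 2 left out, an alternative chosen after the values were seen, 6 genes were lower, which added fosb (-1.62) and ier2b (-1.34). The share of all genes called lower in these settings is not given, so the counts are not set beside it. The level of hsp70l moved with wildtype library 2 too, at 83667 to 232303 in mutants, against 2642 in that library and 210168 to 557005 in the other wildtype libraries.

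Related genes in Olig2+ cells were mostly lower in mutants where they passed. So were all genes, with 12.7% called lower and 6.99% higher, and the list counts are to be read beside these shares. Of 18 other AP-1 and bZIP partner genes 1 was higher, atf4b (1.27), and 4 were lower (median -0.44). The small Maf gene maff averaged 347 ± 146 in mutants, against 2028 ± 870 in wildtype (SD, n = 4 each; log2 fold change -2.52, adjusted p = 0.00186, limma), followed by creb3l1 (-2.07) and fosaa, the second c-Fos gene (-1.88, adjusted p = 0.0178). Of 50 other immediate early genes 1 was higher and 10 lower (median -0.54), among them trib1 (-4.63), csrnp1a (-2.74), the zinc finger gene egr2a (-3.20) and klf11a (-1.58). With both libraries numbered 2 left out, 21 of these 50 were lower, and without wildtype library 1, 6 were.

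The upstream list held 1 higher and 8 lower of 34 (median -0.40), among them the ERK gene mapk3 (-2.20), the JNK gene mapk10 (-1.35) and srfa, a serum response factor (-2.53). Of 25 phosphatases and feedback inhibitors 1 was higher and 9 lower (median -0.70), led by dusp7 (-2.87), spry2 (-3.10), spry4 (-2.09) and spred1, which damp ERK signalling. Matrix and cytokine genes went the other way, with 4 higher and 0 lower of 23 (median 0.78): tnfa (3.64), cxcl8a (5.39), tnfb (2.87) and hmox1a, which degrades heme (1.86). Heat shock genes were higher in 8 of 40 and lower in 1 (median 0.51), with hspb1 (3.47), hsph1 (3.30), serpinh1b (2.76) and chordc1a (2.49) first by p. The summed level of 29 microglial markers was 61116 to 276686 in mutants, against 19934 to 120492 in wildtype, with 10 of 29 called higher, and that of 12 neuronal markers 71391 to 137980 in mutants, against 114474 to 155142 in wildtype, with 1 higher and 3 lower. Of 16 ependymoglia and radial glia markers 3 were higher and 4 lower. Of 14 leptomeningeal fibroblast markers 0 were higher and 3 lower, and of 19 endothelium and pericyte markers 0 were higher and 4 lower. Their part in the values of the 10 genes was not tested.

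In whole telencephalon the 10 genes mainly divided libraries within the groups. For fosab the libraries read 114, 135, 991, 1153 and 1428 in old mutants, 4456, 161, 147, 359 and 193 in old wildtype, 817, 945, 944, 864 and 954 in young mutants, and 219, 282, 3247, 2689 and 2353 in young wildtype. In these values 8 libraries lay between 114 and 359 (old mutants 1 and 2, old wildtype 2 to 5, young wildtype 1 and 2) and the other 12 between 817 and 4456, with none between. The young mutants were the one group in which all 5 libraries stood together.

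The same division was seen in most of the other genes. For 7 of the 10, fosab included, the 8 libraries and the other 12 did not overlap, and the exceptions were fosb, JUNB-104773 and egr1. The 8 libraries were set by their fosab values, so fosab divides them by construction. The share of all genes that divide these libraries in the same way was not computed. This is a description of libraries ordered by their own values, with no test. JUNB-74378 read 862 and 993 in old mutants 1 and 2, against 3167 to 4843 in old mutants 3 to 5. In old wildtype it read 4682 in library 1, against 930 to 1219 in libraries 2 to 5, and in young wildtype 1514 and 1937 in libraries 1 and 2, against 3968 to 4674 in libraries 3 to 5. In young mutants it stayed within 2518 to 2678.

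**Figure D3:**
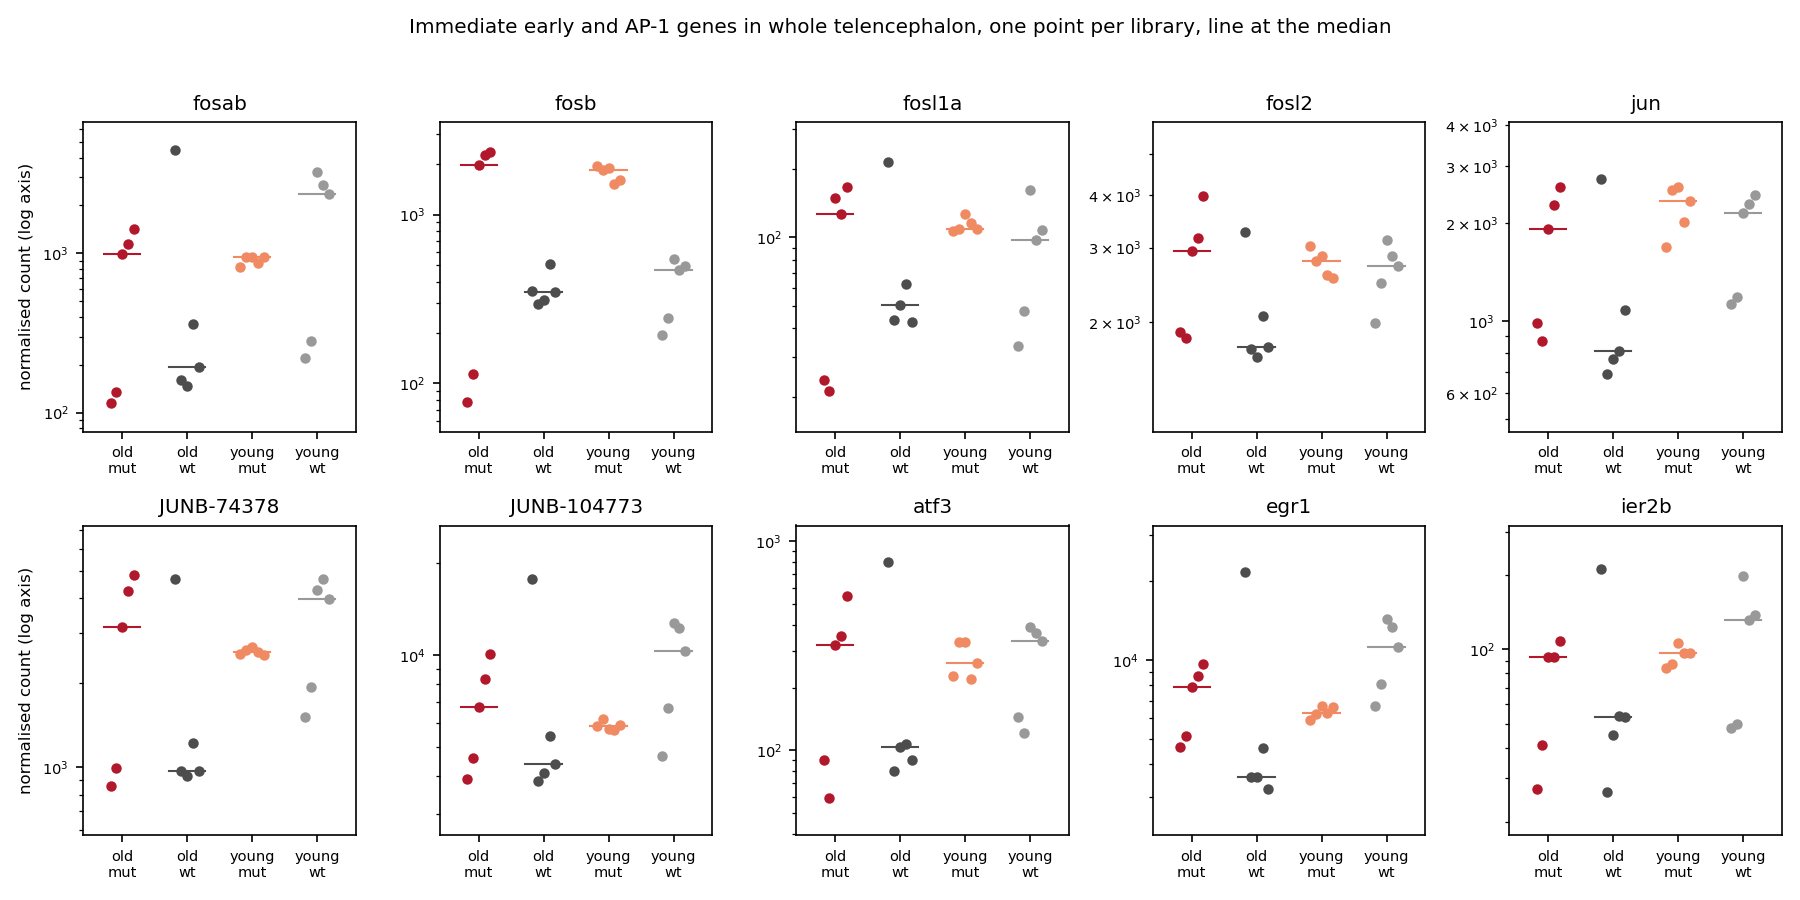
Normalised counts of the 10 genes in the 20 telencephalon libraries (log axis; each point is 1 library; groups from left: old mutant, old wildtype, young mutant, young wildtype; a line marks the group median). Young mutants lie close together, while in most genes the other groups split into low and high libraries, as for fosab at 114 and 135 against 991 to 1428 in old mutants.

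The 8 low libraries held 16.6 to 29.4 M reads, and the other 12 held 13.9 to 24.5 M. Over all genes compared, the mean chi-square per gene was 49.6 to 87.5 between old mutants 1 and 2 and old mutants 3 to 5. It was 21.3 between old mutants 1 and 2, and 24.6 to 32.6 among old mutants 3 to 5. In young wildtype it was 22.6 to 36.2 between libraries 1 and 2 and libraries 3 to 5. It was 20.6 between young wildtype 1 and 2, and 12.1 to 18.9 among young wildtype 3 to 5. Genes of the pineal gland, which lies beside the telencephalon, were abundant in 7 of the 20 libraries (old mutant 4, old wildtype 1, young mutants 2 and 4, and young wildtype 1, 4 and 5), of which 1 was among the 8 and 6 among the 12. The level of hsp70l was 727 in old wildtype 1, 341 and 306 in young wildtype 1 and 2, and 56.5 to 234 in all the others. The summed level of 12 neuronal markers was 102672 to 121663 in old mutants, 105631 to 112141 in old wildtype, 103648 to 111208 in young mutants and 95667 to 108700 in young wildtype.

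The relation of fosab with the other 9 genes was computed over all 20 libraries on deviations from the group means of log2(normalised count + 1). All 9 relations were positive. For 8 of the genes Pearson's r was 0.91 to 0.97 and Spearman's rho 0.89 to 0.97, with adjusted permutation p-values of 1.1e-05 each, from unadjusted ones at the smallest value that the permutations can give. For fosb r was 0.68 (adjusted permutation p = 0.00106, 0.82 without the 2 libraries farthest from the median of fosab) and rho was 0.81. The permutations exchanged all 20 libraries freely. Deviations of a group sum to 0, however, and their spread differed between groups. The SD of fosab on the log2 scale was 0.10 in young mutants and 1.78 to 2.06 in the other groups. The p-values therefore do not measure 20 separate observations. Over the 13 libraries low in pineal genes r was 0.88 to 0.95 for the 8 genes and 0.83 for fosb, and over the 7 high in them it was 0.92 to 0.99 for the 8 genes and 0.47 for fosb (adjusted permutation p = 0.286).

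As the libraries fell into low and high ones, these values hold the distance between the low and the high libraries. Levels within each, not taken as deviations, are given as a description of libraries divided by their own fosab values. Over the 12 libraries r with fosab was 0.98 for egr1, 0.97 for JUNB-104773, 0.95 for ier2b, 0.80 for JUNB-74378 and 0.73 for atf3. It was weaker for fosl1a (0.49, and -0.22 without the 2 libraries farthest from the median of fosab), jun (0.41) and fosl2 (0.30). For fosb r was -0.91 (rho = -0.49), opposite in sign to the value over deviations. The 4 wildtype libraries among the 12 had both the most fosab and the least fosb, so this value holds the difference between the groups. As levels were used, the values of the other genes over the 12 libraries can hold group differences too. Over the 8 libraries r was 0.24 to 0.79, and 0.70 for fosb.

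The gene fosb differed from the others in which libraries were highest. It read 77.9, 114, 1953, 2250 and 2352 in old mutants, 353, 296, 311, 506 and 347 in old wildtype, 1946, 1826, 1884, 1508 and 1599 in young mutants, and 193, 243, 548, 472 and 496 in young wildtype. In 8 of the 10 mutant libraries it was between 1508 and 2352, above all 10 wildtype libraries at 193 to 548, and in old mutants 1 and 2 it was below every wildtype library. Old wildtype 1, the highest of all libraries in fosab, read 353 in fosb, within the range of its group.

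Young mutants against young wildtype asked what granulin loss does in young animals. Here 1 of the 10 genes, fosb, was higher in young mutants and 0 were lower, beside 4.97% of all 19877 genes called higher and 3.82% called lower. It averaged 1752 ± 190 in young mutants and 390 ± 161 in young wildtype (SD, n = 5 each). All 5 young mutant libraries were above all 5 of young wildtype, as in 11.8% of all genes. Young mutants were 4.84-fold higher (log2 fold change 2.27, SE 0.79, 95% interval 0.61 to 3.94), with an adjusted p of 0.0417 (limma) and an exact permutation p of 0.00794, the smallest that 5 against 5 libraries allow. The call was lost, at adjusted p of 0.0523 to 0.0938, without any single library of young mutants and without young wildtype 1, 2, 4 or 5, and at 0.276 without the libraries high in pineal genes. The SE comes from the fit shared by all 4 telencephalon groups, not from the young groups alone. On the log2 scale the SD of fosb was 0.16 in young mutants and 0.68 in young wildtype. In old wildtype it was 0.30 and in old mutants 2.48. The same shared spread enters the other telencephalon comparisons of fosb.

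The next largest value in that comparison was that of egr1, at 5904, 6216, 6676, 6290 and 6608 in young mutants, against 6665, 8094, 14323, 13411 and 11264 in young wildtype. A single pair of libraries overlapped, young mutant 3 lying just above young wildtype 1. The log2 fold change was -0.70 (SE 0.41, 95% interval -1.56 to 0.15; adjusted p = 0.218, limma; exact permutation p = 0.0159). JUNB-104773 followed with -0.57 and 5675 to 6148 in young mutants, against 4678 to 12704 in young wildtype. The other 7 genes had log2 fold changes between -0.22 and 0.55, and the median of the 10 was 0.02.

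The fosb to fosab ratio separated these groups too, at 1.68 to 2.38 in young mutants, against 0.169 to 0.881 in young wildtype. In young wildtype it was high in the libraries low in fosab, while in old mutants it was 0.683 to 1.97 and in old wildtype 0.0791 to 2.12. The Jun to Fos ratio was 1.96 to 3.07 in old mutants, 2.48 to 3.02 in old wildtype, 1.71 to 2.07 in young mutants and 2.70 to 3.22 in young wildtype. Young mutants did not overlap either wildtype group in it. Exact permutation tests gave p = 0.00794 (adjusted p = 0.0370 over the 14 tests) for both ratios in young mutants against young wildtype, and the same for the Jun to Fos ratio in old wildtype against young mutants. The other 11 adjusted p-values were 0.0889 to 0.943. The ratios were chosen with the values known, so these tests are not independent evidence.

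**Figure D4:**
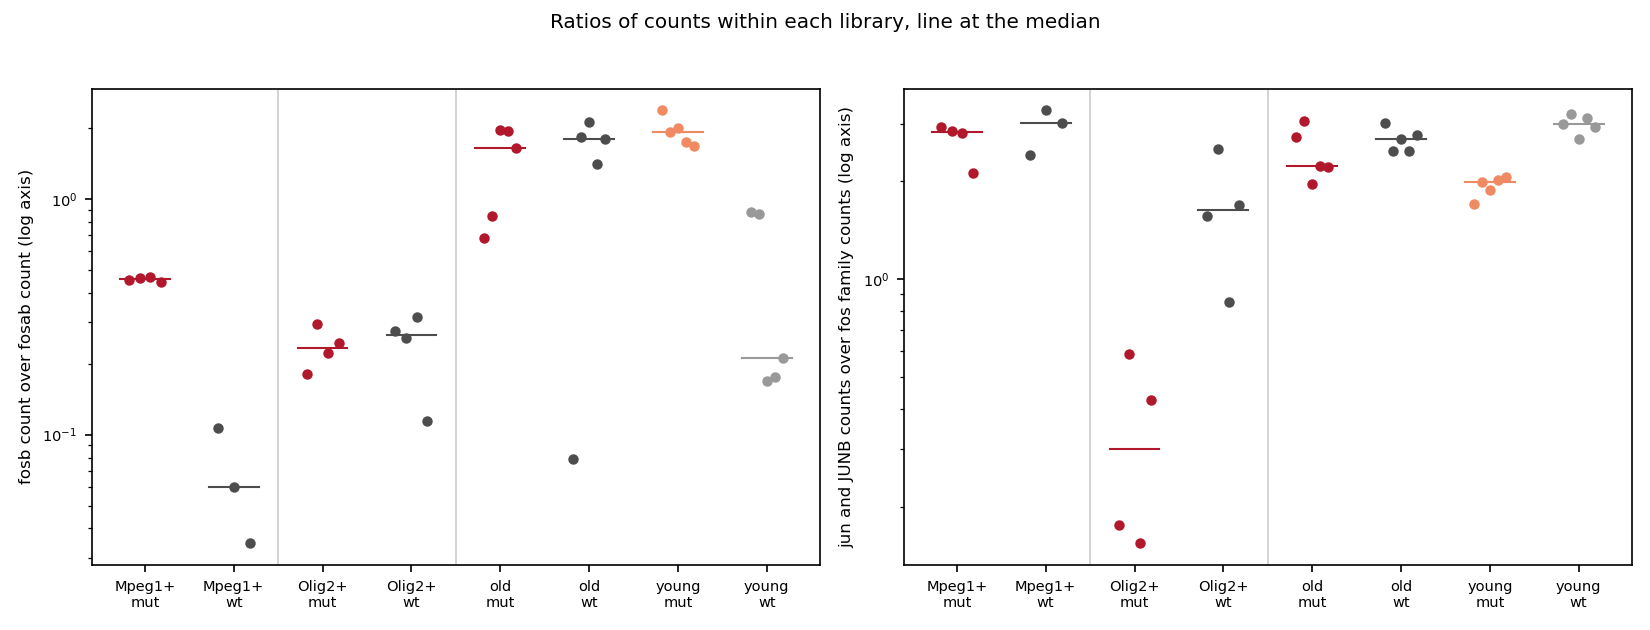
Ratio of fosb to fosab and of summed Jun to summed Fos normalised counts in each library of the 3 tables (log axis; each point is 1 library, a line marks the median; mutant left of wildtype). The fosb to fosab ratio is 0.444 to 0.467 in Mpeg1+ libraries labelled mutant, against 0.0346 to 0.106 in those labelled wildtype, and the Jun to Fos ratio is 0.154 to 0.589 in mutant Olig2+ libraries, against 0.849 to 2.52 in wildtype ones.

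Old against young wildtype asked what aging alone does. The test called 0 of the 10 genes in limma, edgeR and DESeq2 alike, beside 5.66% of all genes called lower and 5.21% higher, and 2 of the 10 had an unadjusted p under 0.05, as did 44.5% of all genes. Most of the 10 genes moved together between libraries, so their signs are not separate observations. All 10 log2 fold changes were below 0, between -1.49 for fosab and -0.02 for fosb, with a median of -0.72 against -0.01 over all genes. JUNB-74378 had -1.11 (SE 0.52, 95% interval -2.21 to -0.01, adjusted p = 0.110, limma). For egr1, which read 21827, 3559, 3555, 4595 and 3211 in old wildtype and 6665 to 14323 in young wildtype, it was -0.97 (SE 0.41, 95% interval -1.83 to -0.11, adjusted p = 0.0746, limma).

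Old wildtype 1 stood apart from the other 4 libraries of its group, and not only in these genes. Over all genes compared, its mean chi-square per gene was 48.7 to 55.3 against old wildtype 2 to 5. Among old wildtype 2 to 5 it was 12.6 to 18.6. Old wildtype 1 was the highest of the 20 libraries in fosab, fosl1a, jun, JUNB-104773, atf3, egr1 and ier2b. It was far above old wildtype 2 to 5 in 9 of the 10 genes, fosb being the exception. Without old wildtype 1, 5 genes were lower in old than in young wildtype: fosab (-2.38, adjusted p = 0.0404, limma), JUNB-74378 (-1.55), egr1 (-1.48, adjusted p = 9.0e-05), ier2b (-1.16) and jun (-1.08, adjusted p = 0.0127). Each library was left out in turn, and old wildtype 1 is singled out for its high values in these same genes. These p-values are therefore not independent evidence of a change with age. Without the 7 libraries high in pineal genes, to which old wildtype 1 belongs, 2 were lower, egr1 (-1.54) and JUNB-104773 (-1.07). The shares over all genes given above belong to the fit of all libraries, and those without these libraries are not given.

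Of 17 other AP-1 and bZIP partner genes 1 was higher in old wildtype and 0 lower, the batf gene (1.06). Among 50 other immediate early genes 1 was higher, the matricellular gene ccn1l2 (1.30), and 3 lower, the survival gene mcl1b (-1.72), nfil3-5 (-1.07) and ccn1l1 (-1.66), with a median of -0.35. The kinase list held 0 higher and 1 lower of 34 (mapk6, -4.33), the feedback list 1 higher and 3 lower of 25 (dusp10 2.06, dusp22b -3.18, nab1b -1.58, nab2 -1.35), the matrix and cytokine list 1 higher of 19 (ptgs2a, 1.01) and the heat shock list 1 higher of 40 (hsf2, 1.26).

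In young mutants against young wildtype the same lists held more calls above 0. Of 17 partner genes 3 were higher and 0 lower (median 0.36): atf4a (1.13, adjusted p = 1.6e-06), the small Maf gene mafk (1.83) and fosaa (1.72, adjusted p = 0.0285). Of 50 other immediate early genes 6 were higher and 2 lower (median 0.27), with csrnp1a (2.30), trib1 (3.18), ccn1l2 (1.72) and ccn1l1 (-2.89) first by p. Among the upstream genes srfb (1.26) and mapk12b (1.94) were the 2 higher of 34, and among the feedback genes spred2b (1.45), dusp10 (2.59) and spry4 the 3 higher of 25. The matrix list held 1 higher of 19, the collagenase gene mmp13a (1.67), and the heat shock list 2 lower of 40, serpinh1b (-4.01) and hsp70.3 (-1.22). Without the libraries high in pineal genes 1 partner gene and 1 other immediate early gene were higher.

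The study also set old wildtype directly against young mutants, to ask how far young mutants resemble old wildtype. In this comparison 2 of the 10 genes were lower in old wildtype and 0 higher, beside 4.62% of all genes called lower and 3.22% higher. The gene fosb averaged 363 ± 83.8 in old wildtype and 1752 ± 190 in young mutants (SD, n = 5 each), without overlap, as in 10.3% of all genes (log2 fold change -2.29, SE 0.79, adjusted p = 0.0373, limma, exact permutation p = 0.00794). The gene jun read 2730, 687, 764, 811 and 1083 in old wildtype, against 1691, 2529, 2591, 2022 and 2342 in young mutants. Old wildtype 1 was the highest of these 10 libraries and the other 4 of its group the lowest. In the test jun was called (log2 fold change -1.08, SE 0.37, adjusted p = 0.0376, limma, exact permutation p = 0.0476).

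All 10 log2 fold changes of old wildtype against young mutants, again not separate observations, were below 0, with a median of -0.83. That of fosab was -1.27 but 0.23 in both edgeR and DESeq2. Both calls were lost without any 1 of old wildtype 2 to 5 or young mutants 2 to 5, only jun was called without young mutant 1, and 4 genes were lower without old wildtype 1. In edgeR and DESeq2 fosb alone was called. Of 50 other immediate early genes 0 were higher and 15 lower (median -0.85), with nfil3-5 (-1.79), gadd45ga (-1.33), mych (-1.24) and trib3 (-1.19) first by p. Of 17 partner genes fosaa (-1.69) and creb1b (-1.27) were lower.

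The remaining lists in that comparison held few calls. The upstream list had 2 higher and 2 lower of 34, the serum response factor gene srfa (1.69) and the kinase gene map2k7 (1.19) being higher and mapk12b (-2.76) and mapk6 (-3.12) lower. The feedback list had 0 higher and 4 lower of 25, which were nab1b (-1.65), dusp22b (-2.75), nab1a (-1.42) and nab2 (-1.50). Inflammatory genes were the 2 higher of 19 in the matrix and cytokine list, ptgs2a (2.01) and il1b (1.63), and serpinh1b (2.86) and hsp70.3 (1.56) the 2 higher of 40 heat shock genes. This comparison shares its old wildtype and young mutant libraries with the others, so its values are not independent of theirs.

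In old mutants against young mutants, 0 of the 10 genes were called in limma, edgeR or DESeq2, and 0 had an unadjusted p under 0.05 in limma, beside 1.02% of all genes called lower, 0.307% called higher and 23.7% with an unadjusted p under 0.05. The log2 fold changes ran between -1.49 for fosb (95% interval -3.15 to 0.18) and 0.12 for egr1. Old mutants 1 and 2 were below all young mutants in each of the 10 genes, and old mutants 3 to 5 within or above the range of young mutants, so the groups overlapped throughout. For atf3 the old mutants read 90.3, 59.1, 318, 354 and 547, against 219 to 331 in young mutants. Of the lists, the cytokine gene il1b was the 1 gene called among all 6 (2.03, adjusted p = 0.0249, limma).

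Old mutants against old wildtype also gave 0 calls in limma and edgeR and 0 genes with an unadjusted p under 0.05 in limma, beside 1.23% of all genes called higher, 1.58% called lower and 30.1% with an unadjusted p under 0.05. DESeq2 called 1 gene, fosb (1.90). All 10 log2 fold changes, again not separate observations, were above 0, between 0.07 and 0.80, with a median of 0.39. The largest was that of fosb, with 77.9, 114, 1953, 2250 and 2352 in old mutants, against 296 to 506 in old wildtype. Its 95% interval ran from -0.87 to 2.47. For fosl2 the values were 1891, 1832, 2944, 3164 and 3970 in old mutants, against 3268, 1725, 1648, 2067 and 1742 in old wildtype, where each group held both low and high libraries.

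The lists in old mutants against old wildtype held 1 to 2 calls each or none. The partner list had 0 of 17. Of the other immediate early genes nfil3-5 was higher (1.66) and ccn1l1 lower (-1.69), of the upstream genes mapk12b higher (1.43) and srfa lower (-1.60), and of the feedback genes nab1b (1.30) and dusp22b (2.48) higher. The prostaglandin synthase gene ptgs2a was the 1 lower of 19 matrix and cytokine genes (-1.82), and serpinh1b (-2.28) and hspb6 (-1.18) were the 2 lower of 40 heat shock genes.

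Whether age acted differently in mutants and wildtype was tested as an interaction of age and genotype. Of the 10 genes 0 were called in limma, edgeR or DESeq2, and 0 had an unadjusted p under 0.05 in limma, beside 2.58% of all genes called higher, 3.46% called lower and 30% with an unadjusted p under 0.05. The values ran between -1.47 for fosb (95% interval -3.83 to 0.89) and 1.09 for egr1 (95% interval -0.12 to 2.31). Without old wildtype 1, singled out above for its high values in these genes, the interaction of egr1 was called, at 1.61. The interval of fosb held 0 and differences of either sign. Of the lists, the feedback genes spred2b (-1.04) and nab1b (1.23) and the heat shock genes hsf2 (-1.11), hspb6 (-1.63) and dnajb5 (-1.09) were called.

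**Figure D5:**
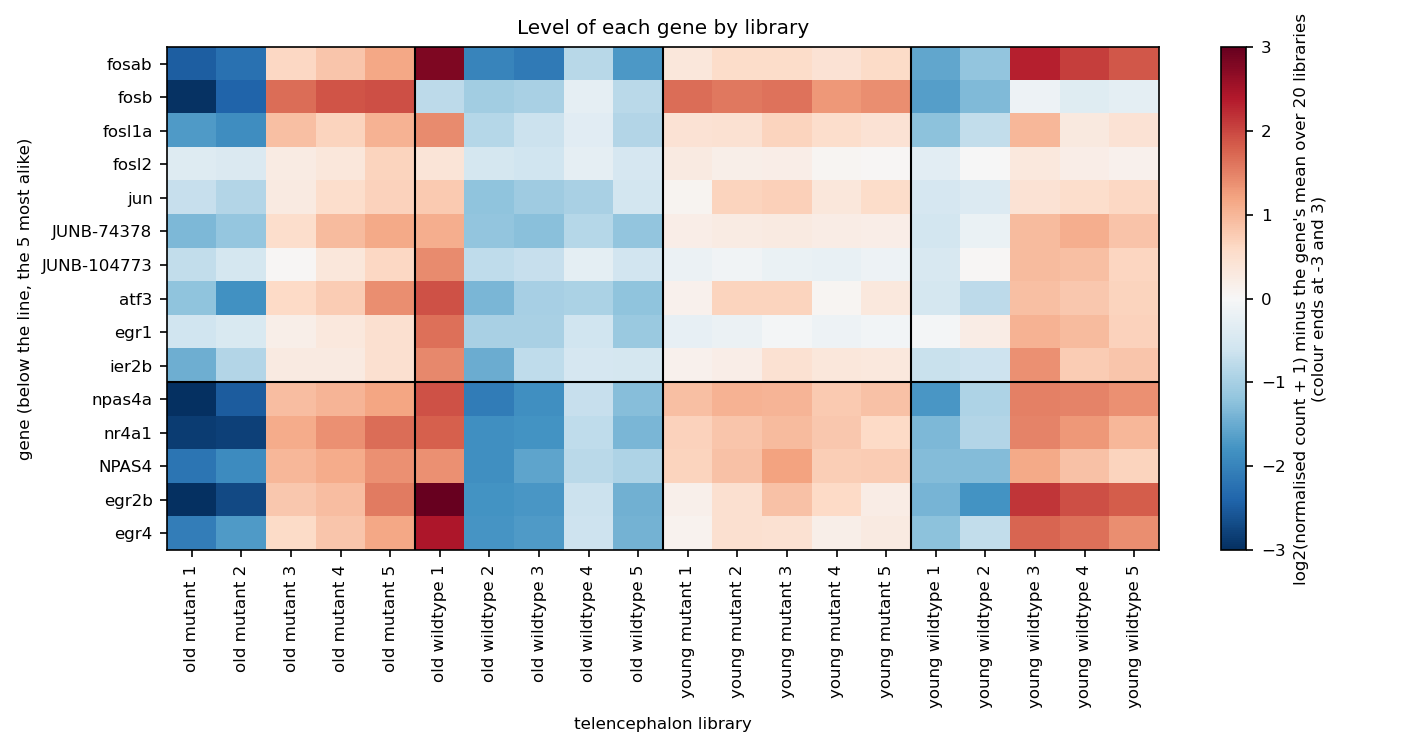
Deviation, from the gene's mean over the 20 telencephalon libraries, of each of the 10 genes and of the 5 genes most like them, below the line (log2 scale, colours end at -3 and 3; columns are libraries, grouped from left as old mutant, old wildtype, young mutant and young wildtype). Old mutants 1 and 2, old wildtype 2 to 5 and young wildtype 1 and 2 are low in most of the 10 genes, old wildtype 1 is high in 9 of them, and fosb is high in 8 of the 10 mutant libraries.

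To find the genes whose pattern was most like that of the 10, deviations from the group means were compared over the 20 telencephalon libraries for 15065 genes that are not among them and had a mean of at least 50. The most alike were npas4a (r = 0.99), which encodes a transcription factor induced by neuronal activity, the orphan nuclear receptor gene nr4a1 (0.99), a second gene named NPAS4 (ENSDARG00000087753, 0.99), and the zinc finger genes egr2b (0.99) and egr4 (0.99). As these were picked for their likeness, the values are a description. The values of npas4a were 190, 266, 2869, 3036 and 3453 in old mutants, 5709, 352, 420, 930 and 625 in old wildtype, 2616 to 3090 in young mutants, and 450, 791, 4322, 4211 and 3930 in young wildtype. Its low libraries were the same 8 as for fosab. For nr4a1 they were 138, 145, 2169, 2601 and 3209 in old mutants, 3498, 282, 291, 594 and 390 in old wildtype, 1517 to 1939 in young mutants, and 397, 544, 2842, 2499 and 1995 in young wildtype. Again no library was between the low and the high ones. Among the 10 genes themselves, the deviations of JUNB-74378 followed the mean of the others most closely (r = 0.99) and those of fosb least (r = 0.70).

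Counted together, the 10 genes took 1.33 to 1.52% of all normalised counts in Mpeg1+ libraries labelled mutant, against 0.550 to 1.97% in those labelled wildtype. In Olig2+ cells they took 0.297 to 0.401% in mutants, against 0.148 to 1.12% in wildtype. In the telencephalon their share was 0.0608 to 0.174% in old mutants, 0.0559 to 0.278% in old wildtype, 0.108 to 0.117% in young mutants and 0.0844 to 0.203% in young wildtype. In each comparison of mutants with wildtype of the same age or cell population, the wildtype range of the share enclosed that of the mutants.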

How the data were processed

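RNA of 35 libraries was sequenced from SMART-Seq v4 cDNA without strand information. The deposited signal values are gene counts that the authors obtained with STAR on GRCz10 and divided by DESeq2 size factors (DESeq2 3.9 in their processing notes). Dividing each library's values by their smallest step gave whole numbers for 100% of the values (tolerance 1e-06), and these recovered reads, summed, were taken as depth. The labels name no animals. The study counts its 5 telencephali in each group as separate biological replicates and pooled 3 telencephali into each sorted one. Counts without strand cannot separate a gene from an antisense partner, and reads shared by the near-identical pairs of zebrafish gene copies are uncertain.

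The 10 genes and all lists were chosen with earlier results of these data known. Genes with a mean of at least 5 were tested on log2(value + 1) with limma 3.58.1 (trend and robust) in R 4.3.3, with Benjamini-Hochberg adjustment over all genes of a comparison. The 4 telencephalon groups shared 1 fit. The fold change understates that of low genes. Two-sided exact permutation tests and relations with 100000 permutations used scipy 1.17.1, and figures matplotlib 3.10.9. The relations were computed over all 20 telencephalon libraries as deviations from group means, and also within clusters because the libraries fell into clusters.

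All 10 genes were named in each comparison; from each list up to 4 called genes with the smallest p, the 5 genes most alike, and the most abundant markers. Genes named outside this rule (grna, grnb, csf1ra, olig2, sox10, hsp70l) are checks or companions, chosen after their values were seen. Other pseudocounts (0.25 and 4), no filter, a mean of at least 50, equal totals, quantile normalisation, edgeR 4.0.16, DESeq2 1.42.0, array weights, no fold threshold, a replicate block, left-out libraries and averaged alike libraries were tried. For the telencephalon a fit of only the groups compared was also tried. The scripts were tested on simulated data. No sequences or coordinates are given, since no genome of the files' build was used here. A gene that the naming rule covers is not reported here.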

Additional observations from a re-analysis of the deposited data

Results flagged for a closer look

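In groups of 4 or 5 libraries, 17 of 70 sets of values (10 genes in 7 groups) held 1 library far from the others of its group by Dixon's 95% criterion. The criterion was applied to normalised counts, not to the log2 scale of the tests. The sets marked can differ on that scale. Chance marks about 1 in 20 such sets if values are normally distributed, and the sets are not independent, since the same libraries recur.

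Old wildtype telencephalon 1 was far above the other 4 of its group in 9 genes: fosab (4456), fosl1a (214), fosl2 (3268), jun (2730), JUNB-74378 (4682), JUNB-104773 (17664), atf3 (795), egr1 (21827) and ier2b (212). In fosb, old wildtype 4 was the one apart, at 506.

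Among Mpeg1+ libraries labelled mutant, library 4 was below the others in all 3 Jun genes, at 38726 for jun, 46084 for JUNB-74378 and 55202 for JUNB-104773. In Olig2+ cells, mutant library 2 was above its group in fosb (8291) and egr1 (63890), mutant library 4 below it in atf3 (10808), and wildtype library 2 below it in fosab (2887). The normalised counts of mutant library 2 summed to 38.5 M, against 22.0 to 23.2 M in the other mutant Olig2+ libraries. As a share of these counts the 10 genes took 0.401% in it, against 0.297 to 0.376% in the other mutant Olig2+ libraries.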

How the results depend on the processing

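Counts of called genes moved with the processing as follows. In Mpeg1+ cells 3 genes were higher in libraries labelled mutant, 1 to 4 when 1 library was left out and 0 with alike libraries averaged; 0 were lower, 0 to 1 when 1 library was left out and 1 with array weights. In Olig2+ cells 2 were lower in mutants, 1 to 4 when 1 library was left out, 1 with a pseudocount of 0.25, 1 with no filter, 1 with the replicate block and 6 with both libraries numbered 2 left out. In old against young wildtype 0 were lower, 0 to 5 when 1 library was left out, 6 with array weights and 2 without libraries high in pineal genes. In young mutants against young wildtype 1 was higher, 0 to 1 when 1 library was left out, 0 with no filter and 0 without libraries high in pineal genes. In old wildtype against young mutants 2 were lower, 0 to 4 when 1 library was left out, 1 in edgeR, 1 in DESeq2, 6 with array weights and 1 without libraries high in pineal genes. In old mutants against old wildtype 0 were higher, 1 in DESeq2 and 2 with array weights. For the interaction 0 were higher, 0 to 1 when 1 library was left out, 3 with array weights and 1 without libraries high in pineal genes. The cause was not tested. The estimation of array weights stopped before full convergence. The share of all genes called under each of these settings is not given, so these counts are not set beside it.

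Signs turned in Olig2+ cells for egr1 (-0.030 with equal totals, -0.011 in edgeR, -0.35 with array weights, -0.62 without both libraries 2, -0.29 to 0.44 when 1 library was left out), fosl1a (-0.060) and fosl2 (-0.21) with array weights, fosb (-1.27 to 0.13 when 1 library was left out) and ier2b (-1.001 to 0.11), and for fosab in old wildtype against young mutants (0.23 in edgeR and in DESeq2). The 156 single values had 3430 alternative values, of which 13 turned in sign.

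The labels number libraries alike in each group. Same-numbered libraries deviated together (a correlation over 0.1) in 0 of 3 pairs in Mpeg1+ cells and 2 of 4 in Olig2+ cells. In the telencephalon they did so in 15 of 30 pairs, with 0.63 as the highest correlation. Differently numbered libraries were not compared, so this does not decide whether the numbers pair them. With the replicate block 2 genes were higher in Mpeg1+ cells (fosb lost, adjusted p = 0.0610) and 1 was lower in Olig2+ cells.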
